A study of Mus musculus with 2 samples.

Results

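Immune and microglial microRNA genes are a set of 7 genes, Mir142, Mir142b, Mir146, Mir146b, Mir150, Mir155 and Mir223, out of 2202 microRNA genes counted. They were taken by gene name, as microRNAs known from leukocytes and microglia. The rule used no values, but the members were chosen with earlier results of these data known. The libraries held small RNA shorter than 30 nt from left cerebral cortex, taken from female mice of strain B6CASTF1/J at 25 days of age, with no treatment given in the labels. There was 1 group with 2 biological replicates, numbered as separate animals although both carry a single donor record, so the spread between them may be partly technical. B6CASTF1/J animals are hybrids with one parent from a common laboratory strain and the other from a strain of wild origin. The tissue is whole cortex, in which microglia and blood leukocytes are mixed with many neurons and other glia. In such a bulk sample, fewer cells of a type and less RNA per cell cannot be told apart.

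A microRNA gene is transcribed as a hairpin, and one or both arms of the hairpin are cut out as a mature RNA of about this size class. The seed near the 5′ end of the mature RNA pairs with target mRNAs and lowers their output. Microglia are the resident macrophages of the brain, and like other blood-lineage cells they transcribe a set of microRNAs that neurons largely lack. Mir142 marks nearly all blood lineages, Mir223 is best known from neutrophils and other myeloid cells, and Mir150 from mature lymphocytes. Mir155 is switched on in activated macrophages and B cells. Mir146 is induced by NF-kB and dampens signalling from Toll-like receptors through the adaptors Traf6 and Irak1. Mir146b carries the same seed, and Mir142b is annotated on the strand opposite to Mir142.

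The RefSeq tables for build GRCm38.p6 held 12 mature arms of the 7 genes and hairpins of 6 of them. The arms below are shown, with the seed (bases 2 to 8) in capitals, because they show which members can be told apart by sequence. They are not all arms of these genes, and the other arm of Mir150 is miR-150-5p. A gene's count joins both of its arms, so it is not a count of a printed seed.
miR-150-3p: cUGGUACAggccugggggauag
miR-146a-5p: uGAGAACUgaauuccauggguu
miR-146b-5p: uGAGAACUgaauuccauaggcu
miR-142a-5p: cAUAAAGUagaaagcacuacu
miR-142a-3p: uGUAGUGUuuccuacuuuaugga
miR-142b: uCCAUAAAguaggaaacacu
miR-155-5p: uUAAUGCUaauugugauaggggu
miR-223-3p: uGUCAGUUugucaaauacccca

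The 12 arms held 11 distinct seeds. The seed GAGAACU stood in both miR-146a-5p and miR-146b-5p, and no other mature arm in the table carried a seed of any member. These 2 arms of 22 nt were identical at 20 bases, with the substitutions G18A and U21C counted from the 5′ end, miR-146a-5p first. The arm miR-142b was the reverse complement of miR-142a-3p over its whole 20 nt, so those 2 RNAs differ in strand and not in place.

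The Mir142 locus shows why the strand of a read decides these counts. The hairpins of both genes are given with the mature arms in capitals. Mir142 lies on the plus strand at chr11:87756864-87756927 and Mir142b on the minus strand at chr11:87756841-87756955, and all 64 bases of Mir142 are the reverse complement of part of Mir142b.
Mir142: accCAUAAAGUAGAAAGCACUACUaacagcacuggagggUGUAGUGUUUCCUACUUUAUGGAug
Mir142b: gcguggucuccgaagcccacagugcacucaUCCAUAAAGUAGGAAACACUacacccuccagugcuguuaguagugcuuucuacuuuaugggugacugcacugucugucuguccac

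On the mm10 annotation, Mir142 (ENSMUSG00000105196.1) sits in an intron of the long noncoding gene Mir142hg on the same strand, and Mir142b (ENSMUSG00000065420.2) runs against it. Mir155 (ENSMUSG00000065397.1), on the plus strand at chr16:84714140-84714204, lies within an exon of its host gene Mir155hg. Mir223 (ENSMUSG00000076066.1), on the plus strand at chrX:96242817-96242926, lies within an exon of the noncoding gene F630028O10Rik. Mir146b (ENSMUSG00000070127.2), on the plus strand at chr19:46342762-46342870, lies in an intron of the protein-coding gene Mfsd13a. Mir150 (ENSMUSG00000065495.1), on the plus strand at chr7:45121757-45121821, and Mir146 (ENSMUSG00000065601.1), on the minus strand at chr11:43374397-43374461, overlap no other annotated gene. The nearest protein-coding gene to Mir146 is Pttg1, at a distance of 45789 bases.

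The libraries held 8491339 and 9289252 reads in replicates 1 and 2, and 3017058 and 3209361 of them were own-strand microRNA counts. Another 40.3% and 39.0% mapped to more than 1 locus and are outside the gene counts. The cortex label was set against neuronal microRNA genes. Mir139, Mir132, Mir128-1 and Mir128-2 were present, and the 7 genes of the neuron list held 20.6% and 19.3% of gene counts. Most of this was Mir139, rank 1 of all genes by mean level, at 155820 CPM in replicate 1 and 141898 CPM in replicate 2. The list was chosen with earlier results of these data known, so these shares are a description and no independent check of the label. The 3 Mir124a genes had 0 to 9 counts per library. Any of their reads that mapped to more than 1 locus are outside these counts, which therefore do not give the level of miR-124. Levels are counts per 1000000 own-strand microRNA gene counts (CPM), one count joining both arms of a hairpin. A mature RNA of this size is read whole, so CPM was not divided by length; per 100 nt of hairpin the order of the members was the same. With 3 counts as the limit that a count of 0 allows, levels up to 0.994 CPM could go unseen in replicate 1 and up to 0.935 CPM in replicate 2. Intervals and this limit cover counting error only, since amplified reads without molecular identifiers are not independent molecules.

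Of the 7 genes, 6 were detected, meaning at least 10 counts in both libraries, and Mir142b was not. Over all counted microRNA genes 17.9% were detected. The 7 genes together held 0.285% of counts in replicate 1 (exact binomial 95% interval 0.279 to 0.291) and 0.241% in replicate 2 (0.235 to 0.246), or 0.263% ± 0.0313 (SD, n = 2). Their median level was 63.0 CPM, beside 0 CPM over all counted genes, of which 1460 had no count in either library. A mean of 100 CPM was reached by 2 of the 7, against 9.08% of all genes.

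Mir150 gave the highest counts of the 7. It had 5934 counts in replicate 1 and 5014 in replicate 2, or 1967 and 1562 CPM, and averaged 1765 ± 286 CPM (SD, n = 2). By mean level it ranked 79 of 2202 genes. It supplied 69.1% of the counts of the 7 genes in replicate 1 (exact 95% interval 68.1 to 70.0) and 64.9% in replicate 2 (63.9 to 66.0). It was the only member at or above 1000 CPM, a level reached by 4.50% of all genes. Mir150, which in lymphocytes restrains the transcription factor Myb, thus supplied most counts of the set. Which cells of the cortex gave the counts of Mir150, or of any other member, was not tested.

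Mir146 came next, with nearly equal CPM in both libraries; after TMM scaling it was higher in replicate 1, as given with the test between replicates. It had 2153 and 2302 counts in replicates 1 and 2, or 714 and 717 CPM, with a mean of 715 ± 2.59 CPM (SD, n = 2) and rank 118. Its share of the counts of the set was 25.1% in replicate 1 and 29.8% in replicate 2. Mir150 was 2.76-fold above it in replicate 1 (exact 95% counting interval 2.62 to 2.90) and 2.18-fold in replicate 2 (2.07 to 2.29), so both libraries gave the same order and a different distance.

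Its seed partner Mir146b was close to the limit of detection. It had 13 counts in replicate 1 and 16 in replicate 2, or 4.31 and 4.99 CPM, with a mean of 4.65 ± 0.478 CPM and rank 387. Mir146 stood 166-fold above Mir146b in replicate 1 (interval 96.6 to 312) and 144-fold in replicate 2 (88.4 to 252). These are folds between hairpins with both arms joined, not between reads of the shared seed. The hairpins of Mir146 and Mir146b share a stretch of 21 nt, of which 17 nt lie within the mature 5p arms. Reads placed at several loci are outside the counts. No other member shared more than 13 nt with another counted hairpin, whereas 49.2% of all counted genes share at least 20 nt. The part of such reads in the low Mir146b count was not tested.

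Mir142 and Mir155 had almost equal levels. Mir142 gave 225 counts in replicate 1 and 179 in replicate 2, or 74.6 and 55.8 CPM, with a mean of 65.2 ± 13.3 CPM and rank 219. Mir155 gave 210 and 181 counts, or 69.6 and 56.4 CPM, with a mean of 63.0 ± 9.34 CPM and rank 222. The ranges of these 2 genes overlapped, and the order turned between the libraries. Mir142 over Mir155 was 1.07-fold in replicate 1 (interval 0.884 to 1.30) and 0.989-fold in replicate 2 (0.800 to 1.22). A gene that marks the whole blood lineage and one that is known from activated cells could thus not be set apart by level here.

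Mir223, the myeloid gene, was lower and the least even of the members detected. It had 58 counts in replicate 1 and 30 in replicate 2, or 19.2 and 9.35 CPM, with a mean of 14.3 ± 6.98 CPM and rank 303. Its coefficient of variation was 48.9%, against 20.4% for Mir142, 16.2% for Mir150, 14.8% for Mir155, 10.3% for Mir146b and 0.362% for Mir146. Mir155 stood 3.62-fold above Mir223 in replicate 1 (interval 2.70 to 4.93) and 6.03-fold in replicate 2 (4.08 to 9.20). Mir223 in turn was 4.46-fold above Mir146b in replicate 1 (2.42 to 8.88) and 1.88-fold in replicate 2, where the interval of 0.990 to 3.68 spans no difference.

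**Figure D1:**
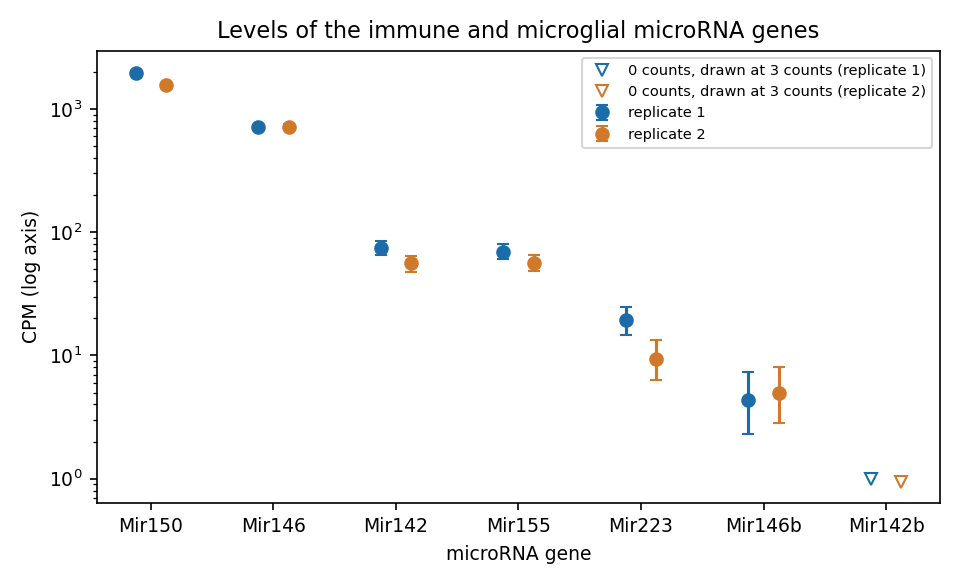
Level of each of the 7 genes in CPM on a log axis, with 1 point per replicate and exact Poisson 95% intervals of the count. The genes run from Mir150 at 1967 and 1562 CPM down to Mir142b, which had 0 counts and is drawn as an open triangle at the level of 3 counts; Mir142 and Mir155 overlap.

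In the order Mir150, Mir146, Mir142, Mir155, Mir223, Mir146b and Mir142b, neighbours did not overlap between replicates except for Mir142 and Mir155. Set against Mir142 as the gene common to blood lineages, Mir150 was 26.4-fold higher in replicate 1 (interval 23.1 to 30.3) and 28.0-fold in replicate 2 (24.1 to 32.7), and these intervals overlapped. Mir146 was 9.57-fold above Mir142 in replicate 1 (8.34 to 11.03) and 12.9-fold in replicate 2 (11.04 to 15.06), which do not overlap. Mir142 was 3.88-fold above Mir223 in replicate 1 (2.90 to 5.27) and 5.97-fold in replicate 2 (4.04 to 9.10). The proportions among the members therefore agreed within counting error for some pairs and not for others.

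**Figure D2:**
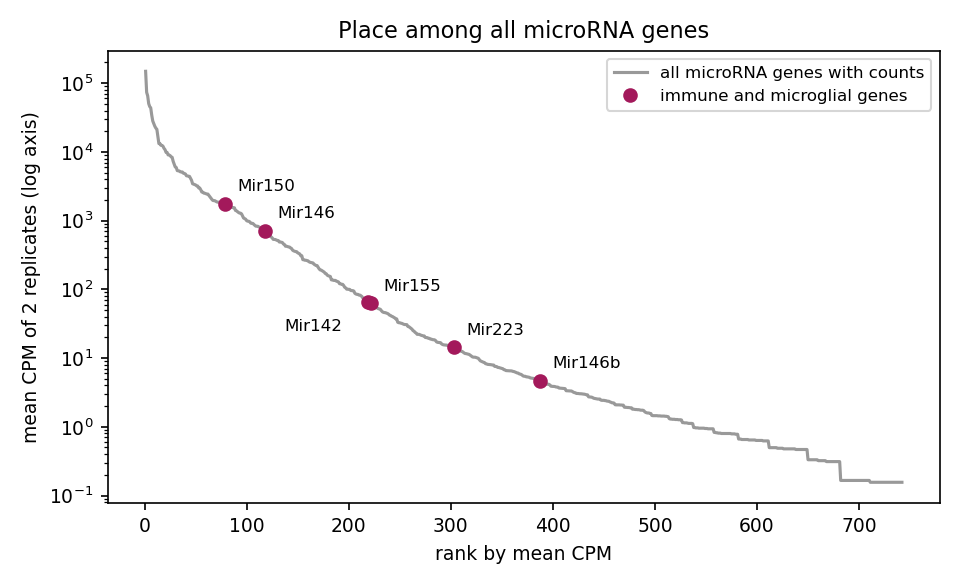
Mean CPM of the 742 microRNA genes with any count, ordered by rank, on a log axis, with the 6 members that had counts marked. Mir150 at rank 79 and Mir146 at rank 118 lie in the upper part of the curve, Mir142 and Mir155 lie side by side at ranks 219 and 222, and Mir146b lies at rank 387.

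Mir142b had 0 own-strand counts in both libraries, while Mir142 had 0 counts on its opposite strand. The opposite-strand column of Mir142b held 225 and 179 counts in replicates 1 and 2, the same numbers as the own-strand column of Mir142. In the either-strand column both genes stood at 0, since a read over genes on both strands is put in the ambiguous class there. At the depth of this locus, 0 reads allow Mir142b a share of up to 1.33% of the locus in replicate 1 and 1.68% in replicate 2, taken as 3 counts. Own-strand reads of Mir142b were thus not detected at this depth.

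The Mir142 pair was not alone in this. Own-strand counts in both libraries beside 0 in the either-strand column were found for 27 of the 2202 genes (1.23%). Among 32 pairs of counted microRNA genes that overlap on opposite strands, 19 had a leading gene with at least 100 counts in both libraries. Its partner had 0 counts in both libraries in 14 of them, and in 0 of them did the partner reach 10 counts in both. The endothelial gene Mir126a, with 17240 and 28355 counts, and its partner Mir126b, with 0 and 0, are a second such pair. All other members kept their counts in the either-strand column within 2 reads: Mir150 had 2 opposite-strand counts in replicate 1, and the rest had none. With Mir142b included, the members lay on their own strand for 97.4% and 97.7% of stranded counts in replicates 1 and 2. Over all genes the shares were 93.8% and 93.7%. Without Mir142b the members reached 99.98% and 100%, which cannot be set against all genes, since those keep such opposite-strand partners.

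**Figure D3:**
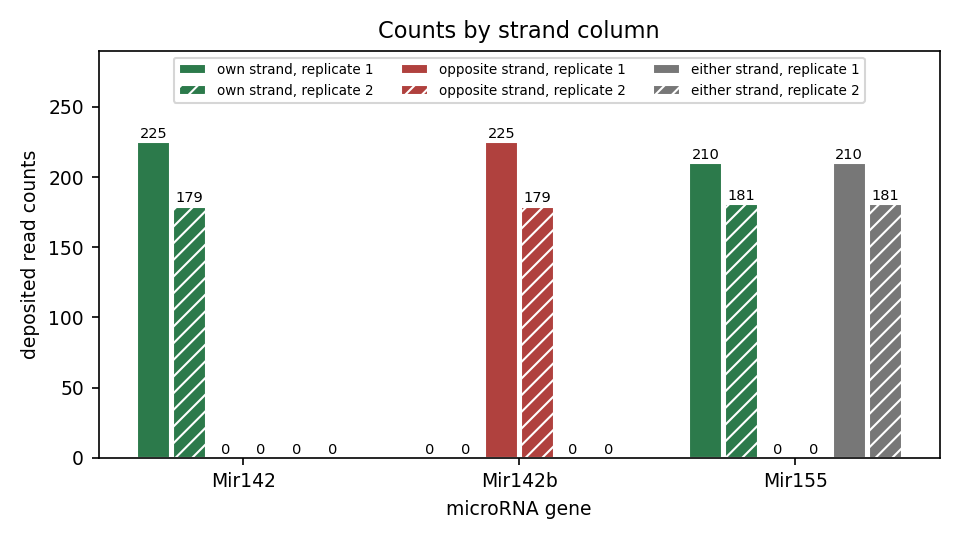
Deposited read counts of Mir142, Mir142b and Mir155 by strand column, with solid bars for replicate 1 and hatched bars for replicate 2. The own-strand counts of Mir142, 225 and 179, reappear as opposite-strand counts of Mir142b, and both genes stand at 0 in the either-strand column, unlike Mir155.

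The replicates were compared per gene by a two-sided exact binomial test on library sizes scaled by trimmed mean of M-values (TMM), with Benjamini-Hochberg adjustment over all 496 genes with at least 10 counts in total. This compares 2 libraries and not 2 conditions. Of the 6 members tested, 5 passed an adjusted p of 0.05, and each of the 5 was higher in replicate 1. Over all tested genes 57.1% passed, 30.0% higher in replicate 1 and 27.0% higher in replicate 2, so a call as such does not set these genes apart. The median log2 ratio of replicate 1 over replicate 2 was 0.52 for the 6 members and -0.030 for all tested genes.

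Mir223 had the widest gap of the 5, with a log2 ratio of 1.25 (95% interval 0.59 to 1.93) and an adjusted p of 0.000238 by the exact binomial test. Mir142 followed at 0.62 (0.33 to 0.92, adjusted p = 4.23e-05, exact binomial test) and Mir150 at 0.54 (0.48 to 0.59, adjusted p = 2.4e-83, exact binomial test). Mir155 stood at 0.51 (0.21 to 0.80) with an adjusted p of 0.00127 by the exact binomial test. Mir146 had the smallest gap of the 5, at 0.20 (0.11 to 0.28, adjusted p = 1.46e-05, exact binomial test). Mir146b was at -0.0056 (-1.18 to 1.14) and did not pass, with an interval wide enough to hold a 2-fold gap either way.

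These calls depend on how the libraries are scaled and on the spread assumed. TMM moved log2 ratios by 0.20 toward replicate 1 relative to library totals. With library totals 3 members, Mir150, Mir142 and Mir223, passed, against 56.9% of all genes. All 3 were higher in replicate 1, as were 20.6% of all genes. Mir146 then stood at -0.0074 and Mir155 at 0.30 with an adjusted p of 0.0645 by the exact binomial test. When edgeR's exact test used the common dispersion of the 2 libraries themselves, a biological coefficient of variation of 36.8%, none of the 6 members and 0.00% of the 496 genes passed. At an unadjusted p under 0.05 that test held 33 of the 496 genes and 0 of the 6 members. The gaps of 5 members were thus larger than counting noise after TMM scaling. The dispersion came from the same pair of libraries that the edgeR test compares, so its 0 calls say little about the members, and the data hold no separate measure of the spread between animals.

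**Figure D4:**
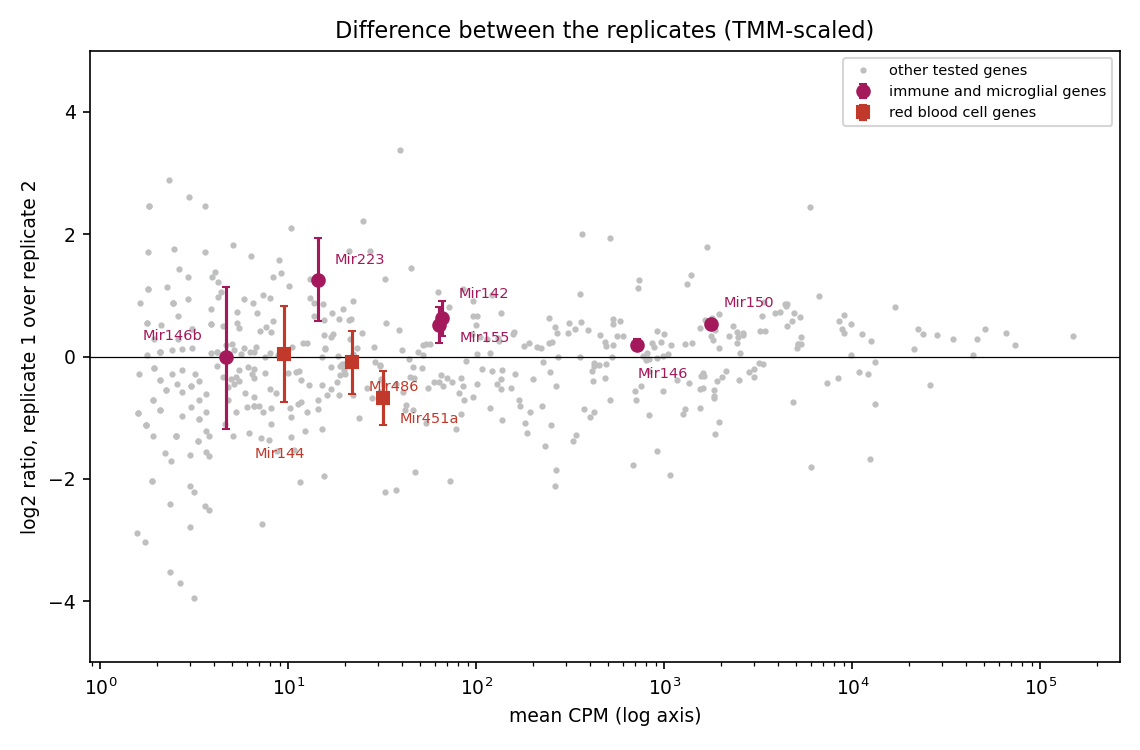
Log2 ratio of replicate 1 over replicate 2 after TMM scaling against mean CPM on a log axis, for the 496 tested genes without 3 that had 0 counts in one replicate. Bars on the immune and microglial genes (circles) and the red blood cell genes (squares) are exact 95% counting intervals; 5 members lie above 0, and Mir451a lies below it.

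Blood left in the tissue carries leukocytes as well as red blood cells, so red blood cell microRNAs are given beside these ratios. The list named Mir451a, Mir144, Mir486 and Mir486b, of which 3 were counted under those names. Together they held 51.0 CPM in replicate 1 and 75.4 CPM in replicate 2, against 2848 and 2406 CPM for the 7 immune and microglial genes. Mir451a, a defining microRNA of red blood cells, had 68 and 133 counts and passed the same test toward replicate 2, with a log2 ratio of -0.67 (-1.12 to -0.24, adjusted p = 0.00384, exact binomial test). Mir144 (27 and 32 counts) and Mir486 (59 and 77 counts) did not pass. By summed CPM the red blood cell list was lower in replicate 1, with 1 of its 3 counted genes passing the test. Whether leukocytes from blood differed between the libraries was not tested. Mir150 was 87.3-fold above Mir451a in replicate 1 (interval 68.7 to 113) and 37.7-fold in replicate 2 (31.7 to 45.1). Mir223 was 0.853-fold of Mir451a in replicate 1 (0.590 to 1.23) and 0.226-fold in replicate 2 (0.146 to 0.337). How much of the Mir150 or Mir223 signal came from blood was not tested.

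A further list of 11 genes known from immune cells or inflammation was read beside the members, and several of them are also used by neurons or glia. Of these 11, 9 were detected and 5 reached a mean of 1000 CPM, against 6 and 1 of the 7 members. The list held 2.49% and 3.34% of counts in replicates 1 and 2 with a median level of 729 CPM. Mir125a led it at 8863 and 17523 CPM, ahead of Mir221 at 5128 and 5101 CPM. Mir342, in an intron of the actin regulator gene Evl, reached 4918 and 4022 CPM. Mir21a, induced in many inflammatory settings, stood at 981 CPM in replicate 1 and 476 CPM in replicate 2, a log2 ratio of 1.25 (1.16 to 1.34, adjusted p = 2.97e-175, exact binomial test). Mir342, Mir181b-2 and Mir221 also passed toward replicate 1, at 0.49, 0.43 and 0.21. Toward replicate 2, Mir181a-2, Mir222, Mir125a and Mir181a-1 passed at -1.96, -1.07, -0.78 and -0.14. Mir181b-1 did not pass.

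The 2 genes of that list with the lowest mean levels, singled out after their values were seen, were Mir511 and Mir147. Mir511, in the gene of the macrophage mannose receptor Mrc1, had 8 counts in replicate 1 and 3 in replicate 2. Mir147, induced by Toll-like receptors in macrophages, had 3 and 8 counts. Of the 11 genes, 8 passed the test between replicates, 4 higher in replicate 1 and 4 higher in replicate 2. The shares of all tested genes were 57.1% passing, 30.0% higher in replicate 1 and 27.0% higher in replicate 2. The 5 members called after TMM scaling were all higher in replicate 1, but with library totals only 3 members passed. The difference between the lists was not tested.

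Of cell types that share the cortex with microglia, the vascular list held 1.20% and 1.26% of counts and the oligodendrocyte list 0.366% and 0.563%, against 0.285% and 0.241% for the immune and microglial genes. Replicate 1 had more of Mir143 and Mir145a, known from smooth muscle, with log2 ratios of 0.86 and 1.95, and Mir126a was higher in replicate 2 at -0.42. The 3 oligodendrocyte genes Mir219a-2, Mir338 and Mir219a-1 were all higher in replicate 2, at -0.25, -0.67 and -2.21. Of these, Mir219a-1 had only 3 and 17 counts, with an interval of -4.62 to -0.42. In the neuron list 4 of 5 tested genes passed, 2 in each direction. Over all tested genes 57.1% passed, 30.0% higher in replicate 1 and 27.0% higher in replicate 2. The replicates thus differed in several cell-type lists, as they did in most tested genes. The part of tissue composition in the ratios of the 5 members was not tested.

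**Figure D5:**
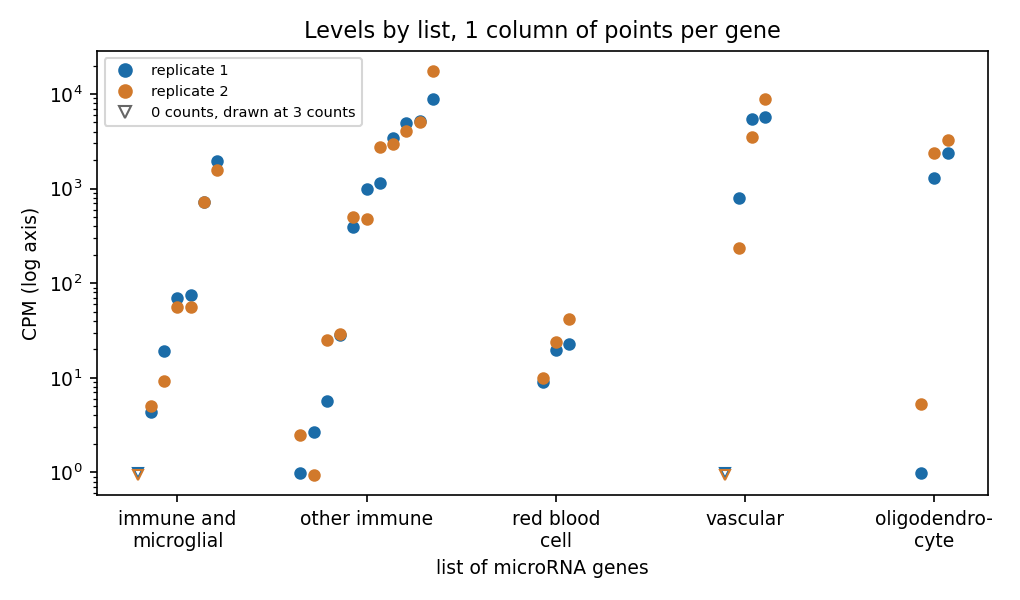
CPM on a log axis by list, with 1 column of points per gene, 1 colour per replicate and open triangles at 3 counts for genes with 0. The immune and microglial genes span from 0 counts to 1967 CPM, the 3 red blood cell genes stay below 50 CPM in both replicates, and the leading genes of the other immune, vascular and oligodendrocyte lists lie above Mir150.

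For each detected member, the gene with the most similar pair of levels was found by distance on log2(CPM + 1) over the 2 libraries, as a description. Mir187 was nearest to Mir150 (distance 0.064), at 2037 and 1520 CPM. Mir1981 was nearest to Mir146 (0.010), at 710 and 714 CPM, and Mir344g to Mir223 (0.024), at 18.9 and 9.35 CPM. Mir9-3 was nearest to Mir142 (0.20), Mir491 to Mir155 (0.29) and Gm23394 to Mir146b (0.12). With 2 libraries, such a distance measures likeness of level and of a single ratio and nothing else.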

How the data were processed

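Small RNA libraries of 2 replicates of 1 group were analysed. The authors deposited raw counts of reads for every microRNA gene, 1 FASTQ file per library, on mm10 with GENCODE M21, per the text file deposited with each table. The aligner and counter were not given in the sources used here. Columns for either, own and opposite strand were identified from the values, and own-strand counts were used. All 2202 identifiers matched M21. The 4 read classes outside genes were left out of library sizes. Members and lists were chosen with earlier results of these data known.

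CPM, exact binomial and Poisson 95% intervals and means with SD were computed from the counts in Python 3.11.15 (scipy 1.17.1, pandas 2.3.3). TMM factors, the exact binomial test and the common dispersion came from R 4.3.3 with edgeR 4.0.16, and alternative size factors from DESeq2 1.42.0. The test script was checked on simulated data. Sequences are from RefSeq, and shared stretches from M21 transcripts. Text names the 7 members, the fixed lists, overlapping genes and the gene nearest to each detected member. Alternatives covered the strand column, scaling, denominators, count minimums, depth, stretch length, pseudocount and each replicate left out.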

Additional observations from a re-analysis of the deposited data

Results flagged for a closer look

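The opposite-strand column of Mir142b, which no level uses, held 225 counts in replicate 1 and 179 in replicate 2. This lies above the 3 counts that a count of 0 allows. The numbers equal the own-strand counts of Mir142, whose hairpin lies within Mir142b on the other strand.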

How the results depend on the processing

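The number of members called between replicates was 5 as reported, 3 with library totals and 0 with edgeR's exact test and its common dispersion, which is estimated from the same 2 libraries and so leaves little room for a call. With all reads as the denominator the summed share was 0.0922% and the median level of the members 22.1 reads per 1000000, by construction, since uncounted reads enter the total. The median level was 15.3 CPM in the either-strand column, where Mir142 has 0 counts. At a shared stretch of 22 nt, 0 members shared one, against 2 at 20 nt. The log2 ratio of Mir146 turned to -0.0074 with library totals, and that of Mir146b turned to 0.039 with DESeq2 size factors. Among 34 alternative ratios of single members, 26 kept direction and call, 6 lost the call and 2 turned. Under other count minimums and under the edgeR test the ratio could not change, since the TMM scaling was the same, and only the call could. The either-strand column held nearly the same reads for the members tested there. Of 42 alternative levels of single members, 34 stayed within 1 SD and 8 moved. Part of this was fixed in advance. With 2 libraries, a level with 1 replicate left out always lies within 1 SD of the mean, and Mir142b was 0 in every setting. The 12 distances to the nearest gene stayed within 1 SD under both other pseudocounts. Of the 6 neighbouring pairs, 5 kept their order in the either-strand column and 5 without replicate 1. All 6 kept it under the other alternatives of the order. Among those, the other scalings and the all-reads denominator divide each library by a constant, so they cannot change the order within a library. Detected members were 6 as reported, 5 in the either-strand column and 4 at a minimum of 50 or of 100 counts. Mir223 and Mir146b fell out at those 2 minimums. The other alternatives run, replicates left out included, kept 6 detected members. Members at or above 100 CPM stayed at 2 under every alternative run. No paired analysis was possible because there is a single group. Depth limits Mir146b and Mir142b, whose counts are near or at 0, and reads placed at several loci are outside all counts.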
